A study of Mus musculus with 6 samples.

Results

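The cytochrome P450 genes were taken as every row of the count table whose symbol reads Cyp, digits, a letter and digits, leaving out Cyp2f2 and pseudogenes. This gave 92 of the 52550 rows, of which 35 had enough counts to be tested. Cytochrome P450 enzymes are haem proteins that put an oxygen atom on a substrate. Most sit in the endoplasmic reticulum and take electrons from the reductase encoded by Por, while a few sit in mitochondria and take them from ferredoxin. Families of the enzyme clear drugs and inhaled chemicals, oxidise fatty acids, shape sterols and steroids, or make and destroy the hormone forms of vitamins A and D. In the lung they are best known from airway secretory (club) cells and from alveolar type 2 (AT2) cells, which make surfactant.

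The 6 libraries came from AT2 preparations of C57BL/6 mouse lung, obtained with dispase and a magnetic sort for EPCAM-positive, CD45-negative cells, and the series compares loss of Grp78, the ER chaperone encoded by Hspa5, with its presence. All 6 carried Sftpc+/creERT2 and Grp78f/f, that is, a tamoxifen-dependent Cre in the surfactant protein C gene and floxed Grp78. The 3 controls are labelled as without tamoxifen and the 3 libraries labelled knockout as with it, yet the day label of every sample counts 10 days from an injection, so the treatment of the controls is uncertain. Tamoxifen and the deletion cannot be told apart in this design, ages are not given in the labels, and no label ties a replicate to an animal of its own, so each p-value measures spread that may be technical. Values below are listed in the order of libraries 1, 2 and 3, as CPM, that is, counts scaled to the library total with edgeR's trimmed mean of M-values (TMM). A gene was called where the edgeR quasi-likelihood test gave a Benjamini-Hochberg adjusted p under 0.05 over 18849 genes.

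The targeted gene went against its label: Hspa5 read 1355, 1288 and 925 CPM in controls and 9262, 9180 and 3809 CPM in the libraries labelled knockout (edgeR log2 fold 2.64, SE 0.361, adjusted p = 0.00208). Floxed and other exons are counted together at the gene level, and the libraries are called "labelled knockout" throughout. Library totals ran from 110770711 to 149520306 counts. The 12 AT2 markers were all above 0 and all called lower, beside 18.8% of all genes. Their sums were 147282 to 172081 CPM in controls and 56602 to 73113 CPM in the libraries labelled knockout. Markers of airway secretory cells were abundant in both groups (38580 to 68766 CPM summed over 14 genes). The 2 libraries numbered 3 stood apart from the others. In bulk RNA, fewer cells of a type and less RNA per cell cannot be told apart.

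Of the 35 tested P450 genes, 8 were called higher in the libraries labelled knockout, 8 were called lower, and 19 were not called. Among the 8 higher, Cyp21a1 passed the filter on low counts through the libraries labelled knockout alone. A difference was thus built into its selection, and it is included in the shares below. The called share was 45.7%, beside 36.8% of all genes tested (18.0% higher and 18.8% lower). The groups did not overlap for 19 of the 35 genes, beside 51.6% of all genes, so neither share stood far from the background. The median log2 fold was 0.32 over the tested P450 genes and 0.02 over all genes. Of the 16 calls, 9 held with each library left out in turn: Cyp2t4, Cyp26b1, Cyp3a13, Cyp4v3 and Cyp39a1 among the lower and Cyp27a1, Cyp7b1, Cyp4f39 and Cyp2a5 among the higher. Without both libraries numbered 3 the counts were 13 higher and 10 lower, where 56.0% of all genes were called. With the replicate number as a block they were 11 and 8, where 44.6% of all genes were called (21.9% higher and 22.8% lower). Scaling by library size alone, which moved the median of all genes by 0.26 on the log2 scale, gave 14 higher and 5 lower. The share of all genes called was not taken for that scaling, so these counts cannot be set beside a background.

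**Figure D1:**
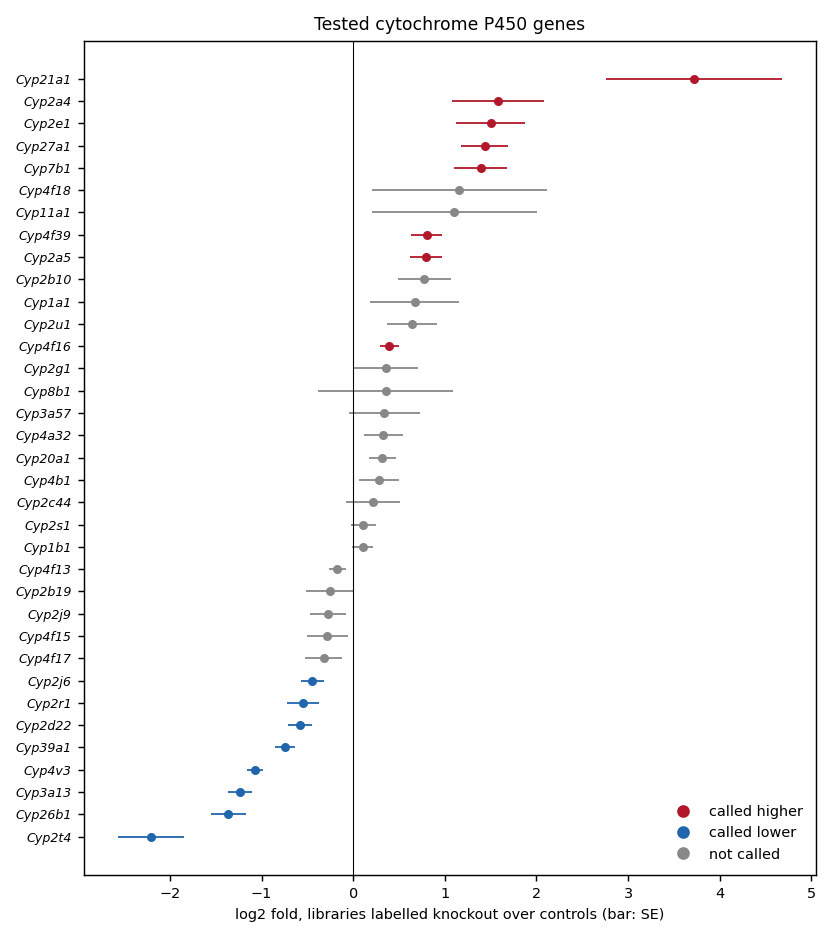
Log2 fold (libraries labelled knockout over controls) of the 35 tested P450 genes with their standard errors, ordered by size and coloured by call. The calls numbered 8 to each side, from Cyp2t4 at -2.21 to Cyp21a1 at 3.72. Cyp21a1 passed the filter on low counts through the libraries labelled knockout alone. The widest error bars belong to Cyp21a1, Cyp4f18 and Cyp11a1 (SE 0.961, 0.957 and 0.897).

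The reads of the family came mainly from 4 genes: Cyp2s1, Cyp2b10, Cyp4b1 and Cyp4v3 held 81.7% to 85.0% of its CPM in each library. Summed over all members, P450 genes read 1756, 1614 and 1255 CPM in controls and 1828, 1752 and 1567 CPM in the libraries labelled knockout. The 2 sets of sums overlapped. As a share of all counts, with no TMM scaling, they did not: the family took 0.153%, 0.146% and 0.122% of the counts in controls and 0.194%, 0.188% and 0.179% in the libraries labelled knockout. Per kilobase of exon, the scale on which genes can be compared, the group means for controls and libraries labelled knockout were 137 and 166 CPM for Cyp4b1, 114 and 124 CPM for Cyp2s1, and 105 and 180 CPM for Cyp2b10. Cyp4v3 followed at 48.7 and 23.2 CPM per kilobase, Cyp39a1 at 21.6 and 12.9, and Cyp2a5 at 20.6 and 35.8. Of these 6 genes, Cyp4v3 and Cyp39a1 were called lower, Cyp2a5 was called higher, and the 3 most abundant were not called.

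Members were grouped by a main role, and those not placed in another group were counted under drugs and foreign compounds. The counts of each group are read beside 18.0% of all genes called higher and 18.8% lower. Of the 44 genes of drug and foreign compound metabolism, 12 were tested, 3 were called higher and 2 lower. Cyp3a13, a CYP3A enzyme also made outside the liver (chromosome 5, 137892932 to 137921619, minus strand, GRCm38/mm10), read 12.4, 11.0 and 10.3 CPM in controls and 4.43, 4.51 and 5.39 CPM in the libraries labelled knockout. The groups were well apart, at log2 fold -1.23 (SE 0.130, edgeR adjusted p = 0.000872). Cyp2d22, the mouse gene often set beside the human drug-metabolising CYP2D6, read 8.74, 9.08 and 8.14 CPM against 6.14, 6.36 and 4.87 CPM (log2 fold -0.58, SE 0.135, edgeR adjusted p = 0.0142). That call ended without control 2 (adjusted p = 0.0658) and with library size scaling (adjusted p = 0.0723).

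On the higher side, Cyp2a5, which oxidises coumarin and nicotine, read 49.7, 47.4 and 31.3 CPM in controls and 81.3, 75.5 and 66.1 CPM in the libraries labelled knockout. Every library labelled knockout exceeded every control, at log2 fold 0.80 (SE 0.178, edgeR adjusted p = 0.0124). Cyp2a4, which hydroxylates testosterone, had 33, 38 and 11 counts in controls and 93, 101 and 61 in the libraries labelled knockout, or 0.289, 0.281 and 0.0842 CPM against 0.684, 0.849 and 0.432 CPM. Its log2 fold was 1.58 (SE 0.499, edgeR adjusted p = 0.0410), and the call held only when library 3 labelled knockout was the one left out (adjusted p = 0.0592 to 0.132 without any other). Cyp2e1, known for oxidising ethanol, read 0.421, 0.163 and 0.345 CPM against 1.04, 0.790 and 0.794 CPM, again with no overlap (log2 fold 1.50, SE 0.380, edgeR adjusted p = 0.0194). The Cyp2e1 call ended without library 1 or library 2 labelled knockout (adjusted p = 0.0666 and 0.0514).

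Cyp2a4 and Cyp2a5 are close copies on chromosome 7 and their reads can be assigned only by the bases that differ, so these are shown. Their coding sequences were 98.4% identical, with 23 mismatches in 1482 bases, and 67 of 1333 windows of 150 bases (5.03%), the read length, were shared outright. The stretch from coding base 592 to 741 held 7 of the mismatches (GENCODE M21, GRCm38; capitals mark the bases that differ):
Cyp2a4: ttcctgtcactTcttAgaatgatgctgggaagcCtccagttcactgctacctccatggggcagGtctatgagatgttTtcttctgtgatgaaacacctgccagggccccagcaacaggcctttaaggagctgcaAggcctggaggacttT
Cyp2a5: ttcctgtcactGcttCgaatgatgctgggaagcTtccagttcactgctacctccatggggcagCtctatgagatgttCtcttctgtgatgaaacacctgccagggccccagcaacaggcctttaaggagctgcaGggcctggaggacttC
The Cyp2a4 count was 0.582%, 0.593% and 0.269% of the Cyp2a5 count in controls and 0.841%, 1.12% and 0.654% in the libraries labelled knockout. How the authors' counting treated reads shared by both is not stated in the labels, so the low Cyp2a4 values are uncertain. The copies were also alike upstream: over the 216 bases before their starts, at chr7:26306943-26307158 for Cyp2a4 and chr7:26835089-26835304 for Cyp2a5 (plus strand, RefSeq on GRCm38.p6), 4 bases differed, shown in capitals.
Cyp2a4 upstream: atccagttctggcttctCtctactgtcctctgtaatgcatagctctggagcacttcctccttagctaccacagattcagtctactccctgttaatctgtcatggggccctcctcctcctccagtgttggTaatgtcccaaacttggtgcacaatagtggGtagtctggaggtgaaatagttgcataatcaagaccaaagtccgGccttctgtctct
Cyp2a5 upstream: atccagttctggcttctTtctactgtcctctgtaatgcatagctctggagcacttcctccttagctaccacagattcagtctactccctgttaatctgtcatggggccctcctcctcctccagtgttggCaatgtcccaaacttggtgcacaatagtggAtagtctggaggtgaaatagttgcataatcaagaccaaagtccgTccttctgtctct
Identity over this stretch was 98.1%. Both genes were called higher, and any part of the upstream likeness in this was not tested.

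The most abundant gene of the group, Cyp2b10, the textbook target of the constitutive androstane receptor, was not called. It read 276, 246 and 143 CPM in controls and 450, 429 and 261 CPM in the libraries labelled knockout. Library 3 was the lowest of each group, and library 3 labelled knockout lay inside the control range. The difference, at log2 fold 0.78 (SE 0.286), missed the threshold (edgeR adjusted p = 0.0677), and the adjusted p was 0.00164 with the replicate number as a block, 1.69e-05 without both libraries numbered 3, 0.0183 without library 3 labelled knockout alone and 0.0154 with library size scaling. It was 0.00978 with DESeq2 and 0.0469 with upper-quartile scaling. Every other setting gave 0.0555 to 0.196. Cyp1b1, which oxidises oestrogen and polycyclic hydrocarbons, read 18.2, 16.9 and 15.3 CPM against 19.1, 19.2 and 15.9 CPM, with overlapping groups (log2 fold 0.10, SE 0.114, edgeR adjusted p = 0.503; called with library size scaling, 0.0181). Its usual partner under the aryl hydrocarbon receptor, Cyp1a1, spread widely within controls (0.368 to 1.48 CPM) and overlapped the libraries labelled knockout (0.921 to 1.64 CPM; edgeR adjusted p = 0.312). The other tested members, Cyp2b19, Cyp2c44, Cyp2g1 and Cyp3a57, had log2 folds of -0.25 to 0.36 and were not called (Cyp2b19, the lowest, was at 0.012 with library size scaling). Without both libraries numbered 3, Cyp2c44 was called higher (log2 fold 0.60, edgeR adjusted p = 0.00585), and Cyp2g1 moved from 0.36 to 0.01 (0.08 without library 3 labelled knockout alone).

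**Figure D2:**
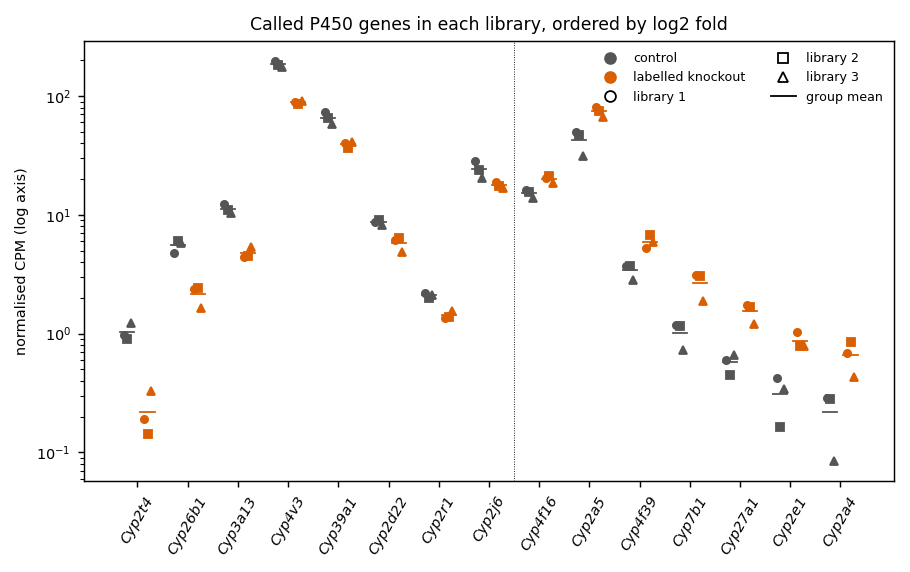
Normalised CPM, on a log axis, of the called P450 genes in each library, ordered by log2 fold. Points are libraries, shaped by replicate number, and lines are group means. The 2 groups do not overlap for any gene drawn. Cyp21a1 is left out, since a log axis has no place for its controls with no count.

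Of the 25 genes of fatty acid oxidation, 12 were tested, 2 were called higher and 2 lower. Cyp4v3, the mouse counterpart of the human fatty acid hydroxylase CYP4V2, gave the lowest adjusted p of the family (chromosome 8, 45304944 to 45333216, minus strand). It read 198, 182 and 176 CPM in controls and 88.5, 86.6 and 90.3 CPM in the libraries labelled knockout, or log2 fold -1.07 (SE 0.0891, edgeR adjusted p = 0.000489). Within each group the 3 libraries were close together, library 3 included. Of its 3808 exon bases, 313 overlap Gm45753 on the same strand, so reads there could belong to either gene. Cyp2j6, of a subfamily that makes epoxides of arachidonic acid, read 28.3, 23.7 and 20.5 CPM against 18.7, 17.6 and 16.9 CPM (log2 fold -0.45, SE 0.128, edgeR adjusted p = 0.0305). Its groups lay close to each other, and the call ended without any single library other than control 3 (adjusted p = 0.0504 to 0.0969) and with library size scaling (adjusted p = 0.196). The call also ended with upper-quartile scaling (edgeR adjusted p = 0.0502).

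Both called rises among fatty acid genes were Cyp4f genes on chromosome 17, of a subfamily whose members hydroxylate the ends of fatty acids and leukotrienes. Cyp4f39, counterpart of the human CYP4F22 that acts on very long chains in skin, read 3.74, 3.703 and 2.80 CPM in controls and 5.26, 6.76 and 5.87 CPM in the libraries labelled knockout (log2 fold 0.80, SE 0.169, edgeR adjusted p = 0.00990). Cyp4f16 read 16.3, 15.5 and 13.9 CPM against 20.5, 21.2 and 18.4 CPM (log2 fold 0.39, SE 0.102, edgeR adjusted p = 0.0214). The Cyp4f16 difference was smaller, and the call ended without control 2, control 3, or library 1 or library 2 labelled knockout (adjusted p = 0.0542 to 0.0898). Other members of the subfamily were not called. Cyp4f13 read 13.8, 14.7 and 13.5 CPM against 13.0, 11.8 and 12.5 CPM (log2 fold -0.17, SE 0.0909, edgeR adjusted p = 0.172; 0.09 with library size scaling), and Cyp4f15 read 13.1, 11.4 and 6.97 CPM against 9.48, 8.71 and 7.74 CPM (log2 fold -0.28, SE 0.223, edgeR adjusted p = 0.351). In Cyp4f15 control 3 lay below every other library, and without it the gene was called lower (log2 fold -0.51, edgeR adjusted p = 0.0297).

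Cyp4b1, a fatty acid hydroxylase known in lung for turning the furan toxin ipomeanol into its reactive form, read 380, 329 and 218 CPM in controls and 422, 402 and 303 CPM in the libraries labelled knockout. Library 3 was again the lowest of each group, and the groups overlapped (log2 fold 0.28, SE 0.221, edgeR adjusted p = 0.348; 0.0402 with the replicate block, 0.0337 without both libraries numbered 3 and 0.0498 with library size scaling). Cyp4a32, of the Cyp4a subfamily of medium- and long-chain fatty acid hydroxylases, read 2.03, 2.17 and 2.22 CPM against 2.21, 3.48 and 2.37 CPM. Only library 2 labelled knockout stood above the rest by more than a small margin, and the gene was not called (log2 fold 0.33, SE 0.212, edgeR adjusted p = 0.260). Cyp4a32 is 97.2% identical in coding sequence to Cyp4a10, so its reads could be shared too. Cyp2j9, Cyp2u1 and Cyp4f17 had log2 folds of -0.32 to 0.64 and were not called. The groups of Cyp2u1, a long-chain fatty acid hydroxylase, did not overlap, and it was called higher without both libraries numbered 3 (log2 fold 0.97, edgeR adjusted p = 0.00796), as it was under library size scaling (adjusted p = 0.0483).

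Of the 12 genes of sterol, bile acid and steroid metabolism, 6 were tested, 3 were called higher and 1 lower. The lower one was Cyp39a1, an oxysterol hydroxylase of bile acid synthesis, at 73.4, 65.8 and 58.2 CPM in controls and 39.95, 36.8 and 41.2 CPM in the libraries labelled knockout (log2 fold -0.74, SE 0.106, edgeR adjusted p = 0.00245). The higher ones were scarce. Cyp27a1, the mitochondrial enzyme that hydroxylates the cholesterol side chain, read 0.605, 0.451 and 0.659 CPM against 1.74, 1.68 and 1.21 CPM (log2 fold 1.43, SE 0.259, edgeR adjusted p = 0.00566). Cyp7b1, which acts on the oxysterol that Cyp27a1 makes, read 1.18, 1.15 and 0.727 CPM against 3.11, 3.04 and 1.89 CPM (log2 fold 1.39, SE 0.287, edgeR adjusted p = 0.00922). In both genes, library 3 labelled knockout was the lowest of its group and still above every control.

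Cyp21a1, the adrenal hydroxylase of glucocorticoid and mineralocorticoid synthesis, was near the limit of detection, with 0, 4 and 0 counts in controls and 20, 25 and 13 counts in the libraries labelled knockout. It was the 1 tested member that passed the filter on low counts through the libraries labelled knockout alone, so a difference was built into its selection. The fitted log2 fold of 3.72 (SE 0.961, edgeR adjusted p = 0.0207) depends on the prior count, and the call ended without control 1, control 3, or library 1 or library 2 labelled knockout (adjusted p = 0.0556 to 0.0748). Of its 2140 exon bases, 102 overlap the pseudogene Tnxa on the other strand. Cyp8b1, which sets the type of bile acid made in liver, read 0.0306 to 0.254 CPM over the 6 libraries and was not called (edgeR adjusted p = 0.730).

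Of the 6 genes of vitamin A and D metabolism, 2 were tested and both were called lower, beside 18.8% of all genes. So few genes do not describe the group. Cyp26b1, which degrades retinoic acid, read 4.78, 5.97 and 5.82 CPM in controls and 2.38, 2.42 and 1.65 CPM in the libraries labelled knockout (chromosome 6, 84571414 to 84593908, minus strand; log2 fold -1.36, SE 0.194, edgeR adjusted p = 0.00244). Cyp2r1, which makes the first hydroxylation of vitamin D, read 2.21, 1.99 and 2.10 CPM against 1.35, 1.39 and 1.56 CPM. Its groups did not overlap, but the log2 fold of -0.55 (SE 0.175, edgeR adjusted p = 0.0424) was called only when library 3 labelled knockout was the one left out (adjusted p = 0.064 to 0.146 without any other) and not with library size scaling (adjusted p = 0.265). Nor was Cyp2r1 called with upper-quartile scaling (edgeR adjusted p = 0.0704) or with no filter on low counts (edgeR adjusted p = 0.0865). The other retinoic acid hydroxylases, Cyp26a1 and Cyp26c1, and the later vitamin D enzymes, Cyp24a1 and Cyp27b1, stayed below the filter.

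Among 5 genes whose main substrate is not settled, 3 were tested and 1 was called, Cyp2t4, the largest fall in the family. Cyp2t4 (chromosome 7, 27153714 to 27158668, plus strand) read 0.965, 0.894 and 1.22 CPM in controls and 0.191, 0.143 and 0.326 CPM in the libraries labelled knockout. It was 4.63-fold lower, at log2 fold -2.21 (SE 0.362, edgeR adjusted p = 0.00393). The gap was wide beside the spread of either group. Cyp2s1, found in many epithelia, was not called: it read 614, 591 and 489 CPM against 594, 570 and 669 CPM (log2 fold 0.11, SE 0.134, edgeR adjusted p = 0.539; -0.05 without both libraries numbered 3). Unlike Cyp2b10 and Cyp4b1, it was highest in library 3 labelled knockout, and library size scaling called it higher (adjusted p = 0.0437). Cyp20a1 read 23.5, 21.0 and 19.6 CPM against 29.8, 28.9 and 21.4 CPM, with overlap at library 3 labelled knockout (log2 fold 0.32, SE 0.142, edgeR adjusted p = 0.113; 0.0353 with the replicate block, 0.00146 without both libraries numbered 3, 0.00877 without library 3 labelled knockout alone and 0.00821 with library size scaling).

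Upstream sequence was examined for the 27 tested members with an entry in the RefSeq promoter table (28 windows from 250 bases before to 50 after the start, GRCm38.p6). The windows were searched on both strands for TNGCGTG (bound by the aryl hydrocarbon receptor), TGATGNAA (ATF4 with C/EBP), the ER stress element (CCAAT, 9 bases, CCACG) and TGACGTGG (XBP1 or ATF6). None of the 4 was present in any of the 28 windows. Over all 32851 windows the shares were 5.07%, 3.97%, 0.119% and 0.676%. Beside shares this low, absence from 28 windows says little, and sequence further from the start was not searched. TATAAA, a search added after the data were seen, was present for 7 members (Cyp1a1, Cyp26b1, Cyp2a4, Cyp2a5, Cyp2e1, Cyp4a32 and Cyp8b1), against 13.6% of all windows. For Cyp2a4 and Cyp2a5 the match lies outside the upstream stretches printed above. The upstream sequences of the 2 largest falls are shown for comparison, with TATAAA in capitals: Cyp26b1 (chr6:84593909-84594060, minus strand) holds it and Cyp2t4 (chr7:27153464-27153713, plus strand) does not.
Cyp26b1 upstream: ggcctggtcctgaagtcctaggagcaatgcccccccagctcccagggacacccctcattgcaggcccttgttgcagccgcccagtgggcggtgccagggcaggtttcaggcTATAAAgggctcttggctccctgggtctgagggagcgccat
Cyp2t4 upstream: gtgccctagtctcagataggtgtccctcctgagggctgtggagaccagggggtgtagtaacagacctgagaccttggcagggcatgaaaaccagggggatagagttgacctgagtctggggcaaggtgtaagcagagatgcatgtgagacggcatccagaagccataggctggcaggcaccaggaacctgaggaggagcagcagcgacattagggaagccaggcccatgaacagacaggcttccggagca
A match is a string of letters in a window and not a measured binding site.

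Cyp2t4, Cyp2a4 and Cyp2a5 lie in 1 cluster of Cyp2 genes on chromosome 7, which holds 16 genes and pseudogenes over 1356 kb, 8 of them tested. Along it, Cyp2s1 and Cyp2b10 were not called, Cyp2a4 was called higher, Cyp2b19 and Cyp2g1 were not called, and Cyp2a5 was called higher. At the far end Cyp2t4 was called lower beside Cyp2f2, which encodes the club cell enzyme that activates naphthalene. Cyp2f2, outside the rule, read 5492, 5130 and 3233 CPM in controls and 3514, 3476 and 3175 CPM in the libraries labelled knockout (log2 fold -0.45, SE 0.214, edgeR adjusted p = 0.137; -0.60 and 0.000135 without both libraries numbered 3). Neighbours in the cluster therefore had log2 folds of either sign.

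**Figure D3:**
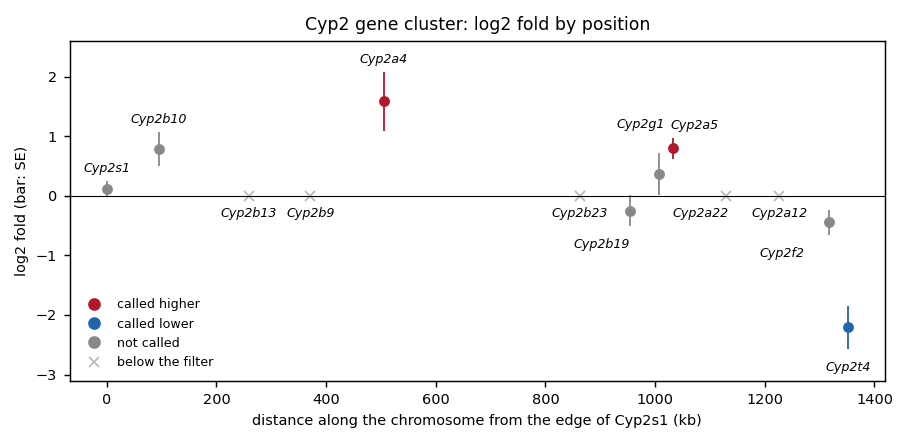
Log2 fold with standard error of the tested Cyp2 genes of the chromosome 7 cluster against their distance in kilobases from the edge of Cyp2s1. Cyp2a4 and Cyp2a5 are called higher and Cyp2t4, at the right end, lower. Crosses on the zero line mark members below the count filter and carry no value, and pseudogenes are left out.

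Library 3 stood apart from libraries 1 and 2 of its group in several members. Cyp4f18, a leukotriene-inactivating enzyme of blood cells, read 0.430, 0.325 and 1.52 CPM in controls and 0.588, 0.454 and 4.03 CPM in the libraries labelled knockout, and Cyp11a1, which cuts the cholesterol side chain, read 0.158, 0.340 and 0.919 CPM against 0.412, 0.336 and 2.30 CPM. Both were highest in library 3 of each group and were not called (log2 folds 1.16 and 1.10, edgeR adjusted p = 0.375 and 0.367), and without library 3 labelled knockout their log2 folds were -0.54 and -0.34. Beside them, 3 of the 15 tested leukocyte and macrophage markers were called higher, where 18.0% of all genes were. The summed markers read 18.9, 16.4 and 26.4 CPM in controls and 26.7, 27.2 and 274 CPM in the libraries labelled knockout. With any 1 control left out, none of these markers was called higher. The part of these cells in the 2 genes was not tested. Beside Cyp2b10 and Cyp4b1, low in library 3, the sum over the 14 airway secretory markers was 68766, 65080 and 39615 CPM for controls and 41299, 43284 and 38580 CPM for the libraries labelled knockout, with 2 of 14 called lower (Cbr2 and Aldh1a7) and none higher. Without control 3, 9 of the 14 were called lower, and the share of all genes was not taken for that fit. Without both libraries numbered 3 there were 10, where 27.7% of all genes were called lower, against 18.8% with all libraries kept. Control 3 was low in both Cyp2b10 and the airway sum. Libraries 1 and 2 labelled knockout had high Cyp2b10 and airway sums near that of control 3. The part of airway cells in the Cyp2b10 and Cyp4b1 values was not tested.

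**Figure D4:**
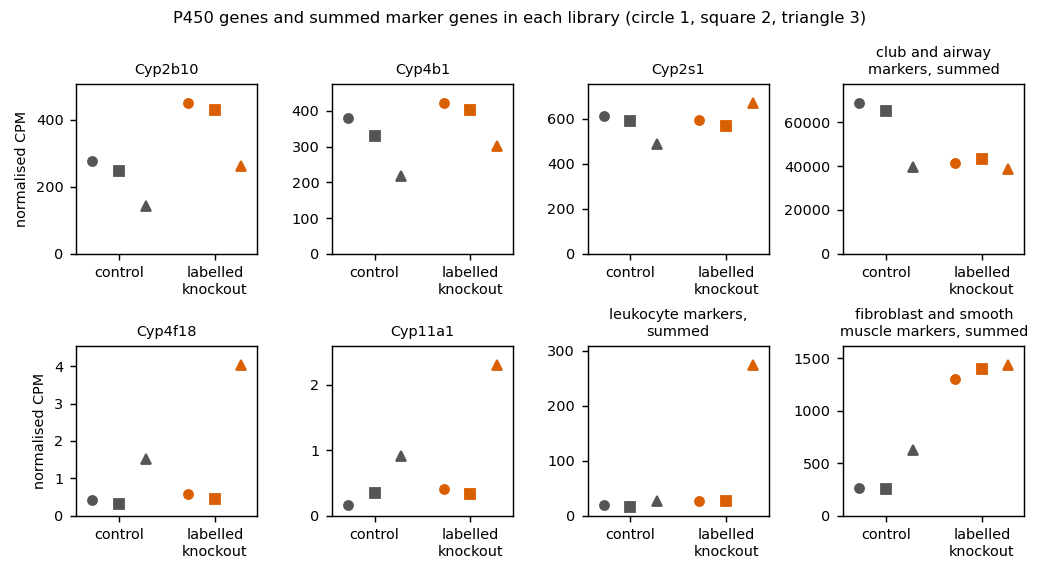
Normalised CPM of 5 P450 genes and of 3 summed marker lists in each library (circles library 1, squares library 2, triangles library 3, axes from 0). Cyp4f18, Cyp11a1 and the leukocyte sum are highest in library 3 labelled knockout, and Cyp2b10 and Cyp4b1 are lowest in library 3 of each group. The fibroblast and smooth muscle sum is higher in all 3 libraries labelled knockout.

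Markers of further cell types were counted as well, beside 18.0% of all genes called higher and 18.8% called lower. Of 15 fibroblast and smooth muscle markers 13 were called higher, with sums of 262, 258 and 622 CPM in controls and 1303, 1401 and 1434 CPM in the libraries labelled knockout. Of 8 mesothelial markers 7 were called higher (298 to 349 CPM against 511 to 655 CPM), as were 5 of 10 ciliated markers (3376 to 4374 CPM against 4219 to 4810 CPM). Of 9 type 1 cell markers, 4 were called lower and 1 higher (2290 to 2571 CPM against 1590 to 1615 CPM). Of 11 endothelial markers 1 was called each way (508 to 557 CPM against 506 to 865 CPM), and of 6 erythroid markers 1 was called lower and none higher (417 to 653 CPM against 320 to 1353 CPM). With 1 library left out, the higher calls ranged from 8 to 13 for fibroblast and smooth muscle, 6 to 7 for mesothelial, 2 to 5 for ciliated, 1 to 3 for type 1 cell, 0 to 8 for endothelial and 0 to 4 for erythroid markers. The highest of the endothelial and erythroid counts came without library 3 labelled knockout. Shares of all genes were not taken for the fits with 1 library left out. The part of any of these cells in the P450 values was not tested.

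The genes that serve P450 enzymes were described from 7 fixed lists, each read against the 36.8% called over all genes. That share was 56.0% without both libraries numbered 3 and 44.6% with the replicate block, and it was not taken for other settings. Of 12 redox partners tested, 3 were called higher and 1 lower (3 and 3 with the replicate block), with a median log2 fold of -0.08. The lower one was Por, the reductase that feeds electrons to P450 enzymes of the endoplasmic reticulum, which read 634, 634 and 509 CPM in controls and 405, 398 and 387 CPM in the libraries labelled knockout (log2 fold -0.58, SE 0.125, edgeR adjusted p = 0.0111), a call that ended without control 2. Without control 3 there were 3 lower calls, and without both libraries numbered 3 there were 5. The higher ones were Cyb5r2 (0.164 ± 0.0363 to 2.47 ± 0.964 CPM, SD, n = 3 each; log2 fold 3.90) and Cyb5r1 (log2 fold 1.45), both reductases of the cytochrome b5 reductase family, and Fdx1l, a mitochondrial ferredoxin (log2 fold 0.87). Of 12 genes of haem synthesis and breakdown, 2 were called higher and 1 lower. Cpox was among the higher (log2 fold 0.92) and Alad was the lower (-0.66), both enzymes of haem synthesis. The higher calls numbered 6 without library 3 labelled knockout and 1 without any other single library. Alas1, the entry enzyme of haem synthesis, was not called (log2 fold -0.20, edgeR adjusted p = 0.456).

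Of 19 tested receptors and regulators of P450 genes, 4 were called higher and 6 lower, with a median log2 fold of -0.29. With library size scaling they were 5 higher and 1 lower. Leaving out library 1 or library 2 labelled knockout left 3 lower. The lower ones were Nr1h3 (LXR alpha, the oxysterol receptor; 22.2 ± 1.60 to 10.8 ± 0.990 CPM, SD, n = 3 each; log2 fold -1.04, edgeR adjusted p = 0.000819), Vdr (vitamin D receptor, -0.79), Ppara (fatty acid receptor, -0.76), Rarg (retinoic acid receptor, -0.48), Tiparp (a brake on the aryl hydrocarbon receptor, -0.45) and Arnt (the partner of that receptor, -0.30). The higher ones, Nr1h4, Nr5a2, Hnf4a and Nr1i2 (log2 folds 3.61, 1.49, 1.09 and 0.58), are known mainly from liver and gut, and averaged 3.64 CPM or less in the libraries labelled knockout. Of these 4 calls, 2 held without control 1, 1 without control 2, control 3 or library 1 labelled knockout, and 0 without library 2 labelled knockout.

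Of 37 genes of conjugation and other drug metabolism, 7 were called higher and 10 lower (median log2 fold -0.20). Of higher calls, 1 was made without control 2 or without library 1 or 2 labelled knockout, 2 without control 3 and 4 without control 1, against 11 with library size scaling. The lower calls numbered 8 to 15 with 1 library left out, the most without control 3, and 19 without both libraries numbered 3. Aox3, an aldehyde oxidase, fell from 594 ± 27.5 to 148 ± 21.5 CPM (SD, n = 3 each; log2 fold -2.01, edgeR adjusted p = 0.00035), the sulfotransferase Sult1a1 from 45.2 ± 2.57 to 19.7 ± 2.34 CPM (log2 fold -1.20) and the glutathione transferase Gstt1 from 125 ± 8.55 to 58.0 ± 5.36 CPM (log2 fold -1.11). Ugt1a7c, a glucuronosyltransferase, rose from 1.13 ± 0.0163 to 3.10 ± 0.280 CPM (log2 fold 1.45). Transcripts of such gene clusters can share exons, so the Ugt1a7c value may include reads of its neighbours.

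Of 14 retinoid handling genes, 5 were called higher and 3 lower (3 and 3 with the replicate block; median log2 fold 0.06), beside the fall of Cyp26b1. Without control 1 or control 2 the higher calls were 3, and without library 1 or library 2 labelled knockout they were 2. The lower ones were Dhrs3, which turns retinal back to retinol (196 ± 14.5 to 105 ± 4.91 CPM, SD, n = 3 each; log2 fold -0.91, edgeR adjusted p = 0.000897), the carrier Rbp4 (-0.82) and Rdh10, which makes retinal (-0.50). The higher ones included Dhrs9 (2.16), Aldh1a3 (1.93), Adh1 (1.07) and Aldh1a2 (0.79). Aldh1a2 and Aldh1a3 make retinoic acid.

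Of 16 genes of the arachidonic acid pathway, 4 were called higher and 2 lower (median log2 fold 0.42). Without control 2 the higher calls were 2, and without library 3 labelled knockout the lower calls were 4. Ptgis, the prostacyclin synthase and itself a P450 protein whose symbol falls outside the rule, read 11.4, 10.3 and 10.4 CPM in controls and 46.1, 44.7 and 20.4 CPM in the libraries labelled knockout (log2 fold 1.80, SE 0.292, edgeR adjusted p = 0.00421). Ltc4s (2.04), Hpgds (1.63) and the phospholipase Pla2g4a (0.63) were also called higher, and Ptgds (-2.31) and Lta4h (-0.49) lower. The thromboxane synthase Tbxas1, another P450 protein, was not called (log2 fold -0.08, edgeR adjusted p = 0.947).

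Of 15 sterol and oxysterol partners, 2 were called higher and 6 lower (median log2 fold -0.21), and with 1 library left out the counts were 2 and 6 to 7. The lower ones included Cyp51, the P450 enzyme of cholesterol synthesis, at 146, 137 and 112 CPM in controls and 80.1, 81.2 and 59.6 CPM in the libraries labelled knockout (log2 fold -0.84, SE 0.154, edgeR adjusted p = 0.00596). Hsd17b4 (-0.68) and Scp2 (-0.80), which shorten the side chain in peroxisomes, and the sterol carrier Stard4 (-0.79) were lower as well. Ch25h, which makes an oxysterol that Cyp7b1 can act on, rose from 0.775 ± 0.117 to 3.33 ± 1.61 CPM (SD, n = 3 each; log2 fold 2.10, edgeR adjusted p = 0.00692), and the sterol carrier Stard5 was higher by 1.41. Over all 7 lists, with each gene counted once, 27 of 123 tested genes were called higher and 28 lower.

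The remaining 57 P450 members did not pass the filter on low counts, and no library held more than 26 counts of any of them. Of these, 12 had no count in any library, among them Cyp7a1, the entry enzyme of bile acid synthesis, Cyp11b1 and Cyp11b2 of the adrenal cortex, and the liver genes Cyp3a11, Cyp3a25 and Cyp2c29. At these depths a count of 3 stood for 0.0213 to 0.0263 CPM, the limit that a count of 0 allows for counting error alone. Another 5 (Cyp2c37, Cyp2c40, Cyp2c54, Cyp2d11 and Cyp2d9) had counts only in the libraries labelled knockout, of at most 6, and 8 (Cyp1a2, Cyp26c1, Cyp2c65, Cyp2c68, Cyp2d10, Cyp2d12, Cyp3a59 and Cyp4a29) only in controls, of at most 8. The other 32 had some counts in both groups. None of the 57 was tested.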

How the data were processed

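RNA was measured in 3 control libraries and 3 libraries labelled Grp78 knockout, at 110770711 to 149520306 counts each. The authors deposited raw counts per gene symbol. Per the submitters' processing notes, mm10 was the build and edgeR 3.7 a tool. Aligner, annotation and the counting of mates and shared reads are not stated there. Genes with 2 counts outnumbered those with 1 by 1.63 to 1.76 times per library, so counting error may exceed that of independent counts.

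Fits used edgeR 4.0.16 in R 4.3.3 (filterByExpr, TMM, robust quasi-likelihood F test, group only), with Benjamini-Hochberg adjustment over 18849 genes and a threshold of 0.05. The SE was taken as the absolute log2 fold over the root of F. CPM values are scaled by TMM. The common biological coefficient of variation was 22.3%. Coordinates and exon lengths came from GENCODE M21, which held 91 of the 92 members by symbol and Cyp2c44 as Cyp2c23. Scripts were tested on simulated data.

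Deviations of same-numbered libraries correlated at 0.174, 0.147 and 0.281, all over 0.1. Control 2 with library 1 labelled knockout gave 0.116, and control 1 with library 2 labelled knockout 0.0897. Libraries numbered 3 correlated with the differently numbered libraries of the other group at -0.227 to -0.181. The labels do not say that the numbers mark pairs, so the replicate block is an alternative. Other alternatives were DESeq2 1.42.0, limma-voom (limma 3.58.1), other scalings and filters, halved counts and leaving out libraries. Values are given per library for Hspa5, every called member and the 8 uncalled members with the highest CPM per kilobase. The 4 lowest adjusted p of each list are named, with all that moved one way where these were 5 or fewer, except that 2 called genes of the lists are not reported here. Further names (Cyp1a1, Cyp4f18, Cyp11a1 and the like) were chosen after their values were seen. The members and lists were chosen with earlier results of these data known.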

Additional observations from a re-analysis of the deposited data

How the results depend on the processing

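The called P450 genes numbered 8 higher and 8 lower. Library size scaling gave 14 and 5, and upper-quartile scaling gave 9 and 6. A mean CPM of at least 1 gave 5 higher and 7 lower of 25 members, and dropping both libraries numbered 3 gave 13 and 10. Leaving out 1 library gave 4 to 10 higher and 5 to 9 lower. Shares of all genes were taken only for the main fit, the replicate block and the fit without both libraries numbered 3. Counts from other settings therefore have no background beside them. The fewest higher came without library 1 or library 2 labelled knockout (4 each) or control 3 (5), and the fewest lower without control 2 (5). With the replicate block, that is, same-numbered libraries treated as pairs, 11 were higher and 8 lower: all 16 calls were kept and Cyp2b10, Cyp4b1 and Cyp20a1 were added. The pathway genes numbered 27 higher and 28 lower, and 13 to 36 and 22 to 38 with 1 library left out. Without both libraries numbered 3 they were 43 and 53, where 28.3% of all genes were called higher and 27.7% lower.

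Signs turned for Cyp2s1 (-0.045 without both libraries numbered 3), Cyp4f13 (0.085) and Cyp2b19 (0.012) under library size scaling, Cyp4f18 (-0.54) and Cyp11a1 (-0.34) without library 3 labelled knockout, and Cyp8b1 (-0.11 without control 3 and -0.04 without library 2 labelled knockout). With 1 library left out, these 3 ranged up to 2.15, 2.01 and 1.37. None of these was called with TMM scaling, and library size scaling called Cyp2s1 higher. The cause was not tested. The median log2 fold of the tested members, 0.32, was 0.57 with library size scaling, 0.13 with a mean CPM of at least 1 and 0.16 to 0.38 with 1 library left out. Depth limits the 57 members below the filter and Cyp21a1.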
